A study of Rattus norvegicus with 26 samples.

Results

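The genes described here code for proteins of the splicing machinery: the serine/arginine-rich (SR) splicing factors (symbols beginning Srsf), the heterogeneous nuclear ribonucleoproteins (hnRNPs, symbols beginning Hnrnp), the proteins of the small nuclear ribonucleoproteins (snRNPs, symbols beginning Snrp) and the subunits of splicing factor 3 (SF3, symbols beginning Sf3a or Sf3b). Every gene of the array's probe annotation whose symbol begins with one of these stems, or with the older stems Hnrp and Sfrs, was taken, irrespective of how it behaved. This gave 36 genes with 37 probes, out of 13337 genes with a named probe and 22523 probes in all. They comprised 9 SR proteins, 17 hnRNPs, 5 snRNP proteins and 5 SF3 subunits, and were spread over 17 chromosomes. Where a gene had several probes, the probe with the highest mean over all arrays stood for it, which concerned Srsf11 only.

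Heart RNA was measured in the stroke-prone spontaneously hypertensive rat (SHRSP), inbred and known for hypertension and cardiac hypertrophy, and in the Fischer rat (F344), the inbred reference strain. All animals were male and untreated, and each strain was sampled as fetuses at embryonic day 20 (E20) and as adults at week 14. The fetal groups held 7 F344 and 4 SHRSP arrays and the adult groups 8 and 7, each array from a single heart and not from a pool according to the methods. The labels name neither animals nor litters, so the p-values measure only the spread between these samples. At week 14 the left ventricle without the septum was used, whereas at E20 the label gives the whole heart and the methods give both ventricles without atria. The labels give a TRIzol extraction for all samples, while the methods name an RNeasy kit for E20, so that stage, dissected tissue and possibly extraction cannot be told apart in any comparison of stages.

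Splicing removes introns from pre-mRNA in the spliceosome, which is built on each intron from the U1, U2, U4, U5 and U6 snRNPs, each a small nuclear RNA with its own proteins and, for most of them, a shared ring of Sm proteins. SR proteins bind mainly exonic sequences and favour the use of nearby splice sites, hnRNPs coat nascent transcripts and often oppose it, and SF3a and SF3b belong to the U2 snRNP, which recognises the branch point. In heart muscle, transcripts of sarcomere and calcium-handling genes are known to change their splicing around birth, and several RNA-binding proteins take part in this switch. The array reads 1 short stretch of each transcript, so the values below are transcript levels and not splicing.

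Values are log2 intensities as deposited, between 6.64 and 15.53 with a median of 7.16 over all probes and arrays, and a difference of 1 means a factor of 2 in intensity. Means of the members over the 26 arrays ran from 7.12 to 12.74, with 34 of 36 above the median of all probes, but intensities of different probes cannot be ranked as transcript amounts. For 5 members (Srsf12, Hnrnpab, Hnrnpr, Snrpc and Snrpd1) every group mean lay below 7.5, in the dim part of the scale with its compressed differences. Cardiomyocyte markers had per-array means of 12.58 to 13.42 in all 4 groups. Replicates 1 and 2 of SHRSP at E20 correlated at 0.9981 and replicates 3 and 4 at 0.9971 over all probes, closer than the other pairs of that group, and results were also computed with each of these pairs averaged.

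Promoters are shown for 4 members that lead the results below: Snrpa and Hnrnpd, the members with the largest excess at E20 over week 14 in SHRSP, and Snrpn and Hnrnpdl, those with the largest deficit in F344. Each line gives the 250 bases before the annotated start in RefSeq, assembly GRCr8, read 5′ to 3′ on the strand of the gene, with matches to the searched motifs in capitals. Snrpa lies at chr1:91618043-91618292 and Snrpn at chr1:120338920-120339169, both on the minus strand, while Hnrnpd at chr14:9919507-9919756 and Hnrnpdl at chr14:9861466-9861715 are on the plus strand with 0 protein-coding genes between them.
Snrpa: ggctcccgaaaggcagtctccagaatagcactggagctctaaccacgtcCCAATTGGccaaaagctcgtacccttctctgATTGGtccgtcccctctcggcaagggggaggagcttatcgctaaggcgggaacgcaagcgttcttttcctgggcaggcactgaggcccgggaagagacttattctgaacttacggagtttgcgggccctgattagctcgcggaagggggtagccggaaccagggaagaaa
Snrpn: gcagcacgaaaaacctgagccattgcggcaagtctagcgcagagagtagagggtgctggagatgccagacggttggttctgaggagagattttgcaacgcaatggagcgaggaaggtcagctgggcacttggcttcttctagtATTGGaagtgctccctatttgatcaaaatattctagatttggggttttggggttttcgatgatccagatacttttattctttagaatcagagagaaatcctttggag
Hnrnpd: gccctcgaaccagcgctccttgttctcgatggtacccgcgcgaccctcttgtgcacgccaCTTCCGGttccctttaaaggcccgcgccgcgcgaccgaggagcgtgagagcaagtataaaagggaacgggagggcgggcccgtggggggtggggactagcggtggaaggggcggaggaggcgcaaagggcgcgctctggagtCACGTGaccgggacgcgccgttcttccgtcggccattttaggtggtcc
Hnrnpdl: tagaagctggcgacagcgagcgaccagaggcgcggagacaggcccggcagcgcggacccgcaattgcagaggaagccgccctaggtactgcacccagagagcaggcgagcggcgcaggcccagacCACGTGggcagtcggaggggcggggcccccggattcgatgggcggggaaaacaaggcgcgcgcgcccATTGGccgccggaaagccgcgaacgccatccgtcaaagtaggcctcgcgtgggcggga

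The CCAAT box was found 3 times before the start of Snrpa, where 2 matches on opposite strands overlap in the run CCAATTGG, once before Snrpn and once before Hnrnpdl. The E-box CACGTG stood before both Hnrnpd and Hnrnpdl, and Hnrnpd also held the ETS motif CCGGAAG on the opposite strand. A window of 300 bases, the 250 shown plus 50 after the start, was available for 35 of 36 members, with the most upstream start taken for the 3 members that had several. On either strand, CCAAT occurred in 20 of 35 member windows (57.1%) against 38.4% of 19005 windows of protein-coding genes, CCGGAAG in 9 (25.7%) against 11.2%, CACGTG in 6 (17.1%) against 7.28%, TTTCCCGC (E2F) in 2 (5.71%) against 1.3%, GCATGCGC (NRF1) in 2 (5.71%) against 3.23% and AAGATGGCG (YY1) in 1 (2.86%) against 2.28%. The member windows also had a higher GC content, with a median of 61.7% against 55.3%. The shares were not compared at matched GC content, and no test was made. CCAAT was present in 15 of the 26 members that were higher at E20, in 3 of the 4 that were lower and in 2 of 5 with a window that did not pass the test. A match is a run of letters and not a shown binding site.

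Transcripts of the splicing factors were higher in the fetal than in the adult heart in both strains. In SHRSP 26 of 36 members (72.2%) were higher at E20 and 4 (11.1%) lower, and the same 26 and the same 4 passed in F344. As background, 17.0% of all probes and 20.4% of all named genes were higher at E20 in SHRSP, and 18.6% and 22.0% in F344, whereas 15.7% and 19.1% were lower in SHRSP and 17.2% and 21.1% in F344. With 34 of 36 members above the median intensity of all probes, these shares compare genes of unlike brightness. No share was computed for genes of similar intensity. The median log2 difference of the members was 0.455 in SHRSP and 0.442 in F344, while the median over all probes was −0.0043 and −0.0046. Over the 4237 named genes with a mean above 8 it was −0.002 and −0.0145. Calls are limma's moderated test with Benjamini-Hochberg adjustment over all probes and a threshold of 0.05. With the additional limit of 1.5 in log2 difference, Snrpa was the only member past it in either strain, against 0.963% of all probes higher in SHRSP and 0.879% in F344.

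In SHRSP all E20 arrays lay above all week-14 arrays for 23 members, and in F344 for 21. Groups that did not overlap, in either direction, were found for 75% of the members in SHRSP and 61.1% in F344. Over all probes, which are of unlike brightness, the shares were 25.6% and 18.0%. The log2 differences of the 36 members in the 2 strains, which come from different hearts normalised together, correlated at 0.96, and at 0.96 without Snrpa. They differed by less than 0.2 between the strains for 32 members. No background over all probes was computed for the correlation or for this count. The 6 members that passed in neither strain were Srsf5, Srsf12, Hnrnpr, Hnrnpab, Sf3b1 and Sf3b2, of which Srsf12, Hnrnpr and Hnrnpab are near the lower end of the scale. The same numbers of members passed in each class in both strains: 13 higher and 2 lower of 17 hnRNPs, 7 higher and 0 lower of 9 SR proteins, 3 higher and 2 lower of 5 snRNP proteins, and 3 higher and 0 lower of 5 SF3 subunits. Because whole tissue was measured, fewer cells of a type and less RNA per cell cannot be told apart.

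**Figure D1:**
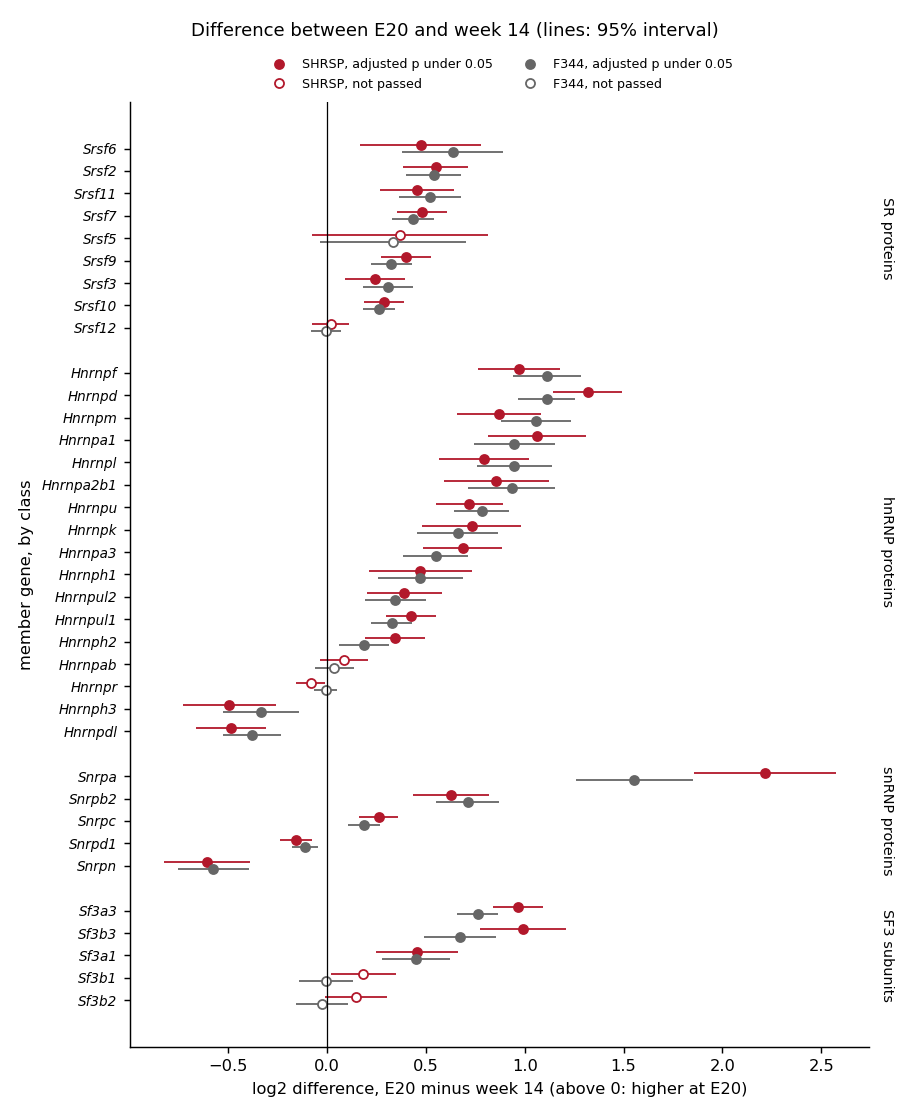
Log2 difference between E20 and week 14 for each of the 36 members, by class, in SHRSP (red) and F344 (grey). Points are limma estimates, lines are 95% intervals and open points did not pass the adjusted p threshold. In each strain 26 members lie to the right of 0 past the test and 4 to the left, and Snrpa lies farthest right at 2.21 and 1.55.

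Among the snRNP proteins, Snrpa changed most of all members. It codes for the A protein of the U1 snRNP, which binds a stem-loop of U1 RNA. The 4 SHRSP hearts at E20 had log2 intensities of 11.19, 11.35, 11.30 and 11.30, and the F344 hearts at E20 ran from 10.99 to 11.45 with a median of 11.26. At week 14 SHRSP ran from 8.80 over a median of 8.97 to 9.40, and F344 from 9.17 over 9.52 to 10.60. Every fetal heart was thus above every adult heart, and the adult F344 hearts were the most widely spread (SD 0.45, n = 8). The difference was 2.21 (SE 0.17, a 4.64-fold change, limma adjusted p = 5.4e-11) in SHRSP and 1.55 (SE 0.14, 2.94-fold, limma adjusted p = 9.9e-10) in F344.

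Snrpn showed the opposite change. It codes for SmN, a close relative of the common SmB protein that is known from brain and heart, and its transcript also carries the upstream reading frame Snurf, so the probe cannot assign the signal to one reading frame. At E20 the SHRSP hearts had 12.39, 12.36, 12.43 and 12.34, and the F344 hearts 12.25 to 12.56 with a median of 12.45. At week 14 the values were 12.75 to 13.20 with a median of 13.10 in SHRSP and 12.62 to 13.27 with a median of 13.00 in F344. No fetal heart reached the lowest adult heart of either strain. Snrpn was lower at E20 by 1.53-fold in SHRSP (log2 difference −0.61, SE 0.11, limma adjusted p = 3.6e-05) and by 1.49-fold in F344 (−0.58, SE 0.087, limma adjusted p = 4.5e-06).

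Snrpd1, which codes for the Sm ring protein SmD1, was also lower at E20, with differences of −0.16 and −0.11 in SHRSP and F344 (limma adjusted p = 0.0022 and 0.0073). Its group means lay between 7.24 and 7.39, so this shift is small and near the lower end of the scale. Snrpc, coding for the C protein of the U1 snRNP, which contacts the 5′ splice site, was higher at E20 by 0.26 and 0.19 (adjusted p = 8.3e-05 and 4.4e-04 by limma), again with group means of only 7.04 to 7.31. Snrpb2, coding for the U2 snRNP protein U2B″, which is a paralogue of Snrpa's product, was higher at E20 by 0.63 and 0.71, with group means of 10.39 against 9.76 in SHRSP and 10.37 against 9.66 in F344. The 5 snRNP genes thus moved in both directions, and their median difference was 0.260 in SHRSP and 0.185 in F344.

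The hnRNPs held most of the other large stage differences. Hnrnpd codes for AUF1, which binds AU-rich elements of short-lived mRNAs. Its values at E20 were 10.32, 10.26, 10.05 and 10.14 in SHRSP and 10.02 to 10.26 with a median of 10.12 in F344, against 8.62 to 9.09 (median 8.96) and 8.76 to 9.22 (median 9.07) at week 14. The stages did not overlap in either strain. The difference was 1.32 in SHRSP (SE 0.085, 2.49-fold, limma adjusted p = 1.0e-12) and 1.11 in F344 (SE 0.070, 2.16-fold, limma adjusted p = 4.9e-13).

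Hnrnpdl, a paralogue and the chromosomal neighbour of Hnrnpd, moved the other way. Its values at E20 were 9.11, 8.98, 8.83 and 9.38 in SHRSP and 9.01 to 9.30 (median 9.07) in F344, against 9.42 to 9.66 (median 9.61) and 9.23 to 9.70 (median 9.52) at week 14. All SHRSP hearts of E20 were below those of week 14, whereas the ranges overlapped in F344, where fetal hearts at 9.29 and 9.30 lay above the lowest adult heart at 9.23. The difference was −0.49 in SHRSP (SE 0.085, 1.40-fold, limma adjusted p = 3.9e-05) and −0.38 in F344 (SE 0.070, 1.30-fold, limma adjusted p = 7.2e-05). The genes share sequence, and since the probe sequences were not used here, cross-hybridisation between paralogues was not tested for any member.

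Hnrnph3, a member of the G-tract-binding H/F family that lacks one of its RNA-binding domains, was the other hnRNP lower at E20. Its values at E20 were 9.49, 9.48, 9.36 and 9.50 in SHRSP and 9.43 to 9.71 (median 9.51) in F344, against 9.73 to 10.20 (median 9.94) and 9.21 to 10.17 (median 9.92) at week 14. One adult F344 heart, replicate 3, had 9.21 and lay below every fetal heart, while the other adult hearts were above all of them. The difference was −0.49 (SE 0.11, adjusted p = 0.0010 by limma) in SHRSP and −0.34 (SE 0.094, adjusted p = 0.0054 by limma) in F344. Its relative Hnrnpf changed in the opposite direction: group means were 12.46 and 12.56 at E20 against 11.49 and 11.44 at week 14 in SHRSP and F344, a difference of 0.97 (SE 0.10) and 1.11 (SE 0.084). Hnrnph1 and Hnrnph2, which complete this family on the array, were higher at E20 by 0.47 and 0.34 in SHRSP and by 0.47 and 0.19 in F344.

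Hnrnpa1, a repressor of exon inclusion, had 8.78, 8.78, 8.17 and 8.27 in the SHRSP hearts of E20 and 8.15 to 8.78 (median 8.34) in those of F344, against 7.28 to 7.61 and 7.28 to 7.68 at week 14. The fetal hearts of SHRSP fell into replicates 1 and 2 and replicates 3 and 4 for this gene, the same pairs that stood close together over all probes. The difference was 1.06 in SHRSP (SE 0.12) and 0.95 in F344 (SE 0.099), and it was 1.06 with an adjusted p of 3.11e-06 when each pair was averaged, by limma. Its group means at week 14 were below 7.5, and the gene has many processed copies in mammalian genomes, so the value is less certain than its p.

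Hnrnpa2b1, a close relative of Hnrnpa1 that also carries mRNA into the cytoplasm, exceeded its adult level by 0.86 in the SHRSP fetuses and 0.93 in those of F344. Hnrnpm, which binds GU-rich sequence in introns, was higher by 0.87 and 1.06. Differences between 0.55 and 0.95 were found for Hnrnpl (0.79 and 0.95), which binds CA repeats, the scaffold attachment factor Hnrnpu (0.72 and 0.78), the poly(C)-binding Hnrnpk (0.73 and 0.66) and Hnrnpa3 (0.68 and 0.55). The U-like proteins Hnrnpul1 and Hnrnpul2 had smaller differences of 0.42 and 0.39 in SHRSP and 0.33 and 0.35 in F344. All of these passed limma's test in both strains, whereas Hnrnpab (0.08 and 0.04) and Hnrnpr (−0.08 and −0.01) did not, with 95% intervals of −0.04 to 0.21 and −0.06 to 0.14 for Hnrnpab and −0.16 to −0.01 and −0.07 to 0.05 for Hnrnpr. Values of Hnrnpl, Hnrnpu, Hnrnpk, Hnrnph1, Hnrnph2, Hnrnpul1, Hnrnpul2 and Snrpb2 were selected after they had been seen.

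**Figure D2:**
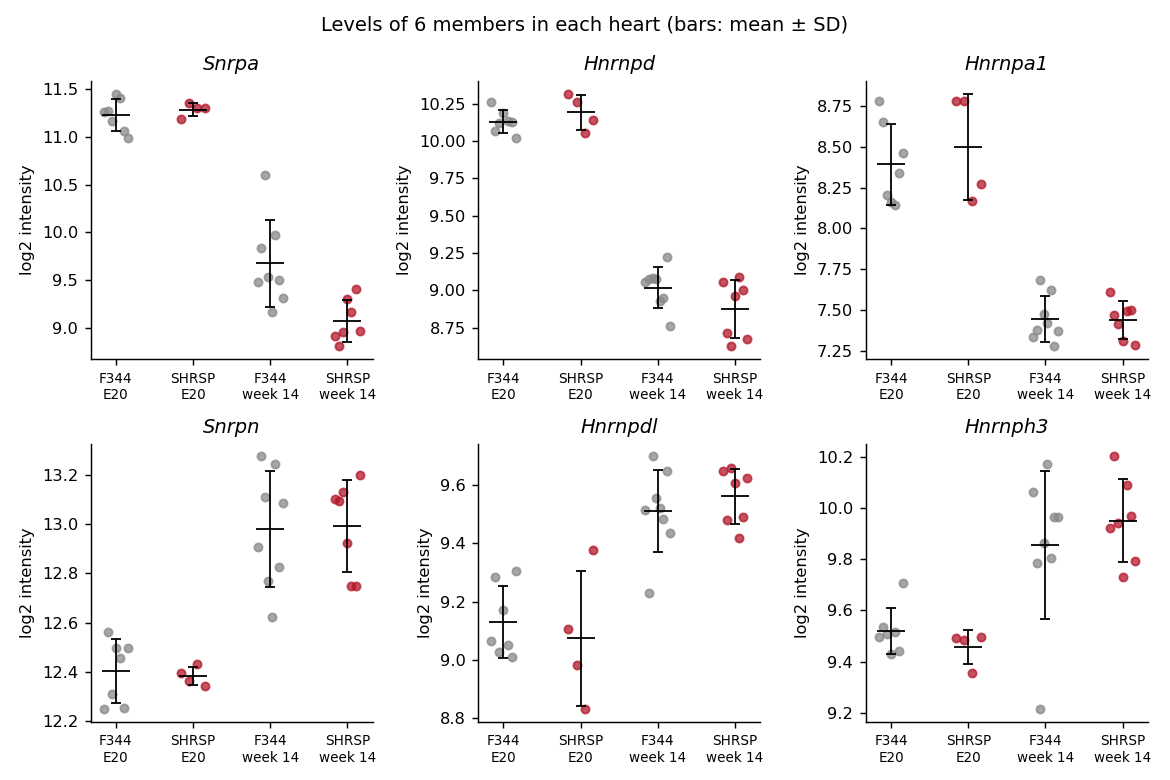
Log2 intensity of 6 members in each heart, in 4 groups by strain and stage, with 1 point per array and bars for the mean ± SD. Snrpa, Hnrnpd and Hnrnpa1 (top) lie higher at E20 with no overlap between the stages, and Snrpn, Hnrnpdl and Hnrnph3 (bottom) lie lower. The adult F344 heart at 10.60 for Snrpa is the one at 9.21 for Hnrnph3.

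The SF3 subunits divided into members that were higher at E20 and members that did not pass. Sf3a3, the SF3a subunit of the U2 snRNP known as SAP61, had 9.98, 9.98, 10.10 and 10.04 in the SHRSP hearts of E20 and 9.88 to 10.22 (median 9.97) in those of F344, against 8.92 to 9.12 (median 9.10) and 9.06 to 9.45 (median 9.21) at week 14. The stages did not overlap in either strain, and the difference was 0.96 (SE 0.062, limma adjusted p = 8.5e-13) in SHRSP and 0.76 (SE 0.051, limma adjusted p = 1.5e-12) in F344. Sf3b3, the SF3b subunit SAP130, was at 10.29, 10.27, 10.52 and 10.58 in SHRSP and at 9.96 to 10.57 (median 10.23) in F344 at E20, and at 9.13 to 9.68 (median 9.41) and 9.24 to 9.68 (median 9.62) at week 14. This was again without overlap, and the difference was 0.99 (SE 0.11, limma adjusted p = 1.8e-08) and 0.67 (SE 0.088, limma adjusted p = 4.2e-07). Sf3a1, which bridges the U1 and U2 snRNPs, was higher by 0.45 in SHRSP and 0.45 in F344, with group means of 8.28 against 7.83 and 8.33 against 7.88.

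Sf3b1, which clamps the branch point and is the target of splicing inhibitors, and Sf3b2, its partner SAP145, had differences of 0.18 (95% interval 0.02 to 0.35) and 0.15 (−0.01 to 0.31) in SHRSP. In F344 they were −0.01 (−0.14 to 0.13) and −0.03 (−0.16 to 0.10). Neither passed limma's test (adjusted p from 0.086 to 0.96), which leaves a change of these sizes possible. With only the groups compared in the fit Sf3b1 passed in SHRSP (adjusted p = 0.047 by limma), and likewise without replicate 6 of F344 at week 14 (adjusted p = 0.026 by limma).

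Of the SR proteins, 7 of 9 were higher at E20 in both strains and 0 lower, with median differences of 0.401 in SHRSP and 0.333 in F344 over all 9. Srsf11 (p54) was the only member with several probes. Its brighter probe read 10.95, 10.63, 10.75 and 10.96 in SHRSP and 10.78 to 11.23 (median 11.10) in F344 at E20, and 10.17 to 10.66 (median 10.34) and 10.32 to 10.65 (median 10.49) at week 14. The stages overlapped slightly in SHRSP and not in F344. The difference was 0.45 (SE 0.091) and 0.52 (SE 0.076) for this probe and 0.63 (SE 0.15) and 0.52 (SE 0.12) for the dimmer one, so that both probes gave the same direction and passed in both strains.

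Differences for Srsf2 (SC35), which marks nuclear speckles, were 0.55 and 0.54, for Srsf6 (SRp55) 0.47 and 0.64, for Srsf7 (9G8) 0.48 and 0.44, and for Srsf9 (SRp30c) 0.40 and 0.32. Srsf3 (SRp20), the smallest of the classical SR proteins, and Srsf10 (SRp38), a repressor when dephosphorylated, had 0.24 and 0.31 and 0.29 and 0.26. All of these passed limma's test in both strains. At week 14 Srsf7 and Srsf10 had group means of only 7.38 to 7.41, near the lower end of the scale. Srsf12 stayed near the lower end in all groups, with means of 7.11 to 7.13 and 95% intervals of the stage difference from −0.07 to 0.11 in SHRSP and from −0.08 to 0.07 in F344. Among the SR proteins, these genes other than Srsf12 were selected after their values had been seen.

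Srsf5 (SRp40), an SR protein known to respond to growth signals, did not pass with differences of 0.37 and 0.33, and its adult hearts differed widely. At week 14 the F344 hearts ran from 9.91 over a median of 10.89 to 11.10 and the SHRSP hearts from 10.14 over 10.54 to 11.06, against 10.95, 11.03, 10.69 and 11.09 in SHRSP and 10.65 to 11.40 (median 11.04) in F344 at E20. In F344 5 adult hearts had 10.85 to 11.10, within the fetal range, while replicates 3, 6 and 8 had 10.43, 9.91 and 10.01. The 95% interval of the stage difference was −0.08 to 0.82 in SHRSP and −0.04 to 0.70 in F344 (limma adjusted p = 0.22 and 0.17). Srsf6 was at 9.77, 9.86 and 10.17 in the same replicates 3, 6 and 8 and at 10.28 to 10.69 in the other 5 adult F344 hearts. The same 3 hearts were thus lowest for both genes. Over all probes replicate 3 correlated at 0.9906, 0.9913 and 0.9879 with replicates 2, 6 and 8, and replicates 6 and 8 at 0.9946. With replicates 1, 4, 5 and 7, replicate 3 correlated at only 0.9802 to 0.9831. Replicate 2, with Srsf5 at 10.85, was also close to replicates 6 and 8, at 0.9945 and 0.9949. With replicates 1, 4, 5 and 7 it correlated at 0.9877 to 0.9912. Replicate 6 did so at 0.9881 to 0.9906 and replicate 8 at 0.9901 to 0.9930. Over all probes, replicates 3, 6 and 8 were thus not set apart as they were for Srsf5 and Srsf6. The part of array-wide differences in the values of these genes was not tested. The SD of Srsf5 within adult F344 hearts, 0.49, was the highest of any member in any group, where the median SD was between 0.107 and 0.142.

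**Figure D3:**
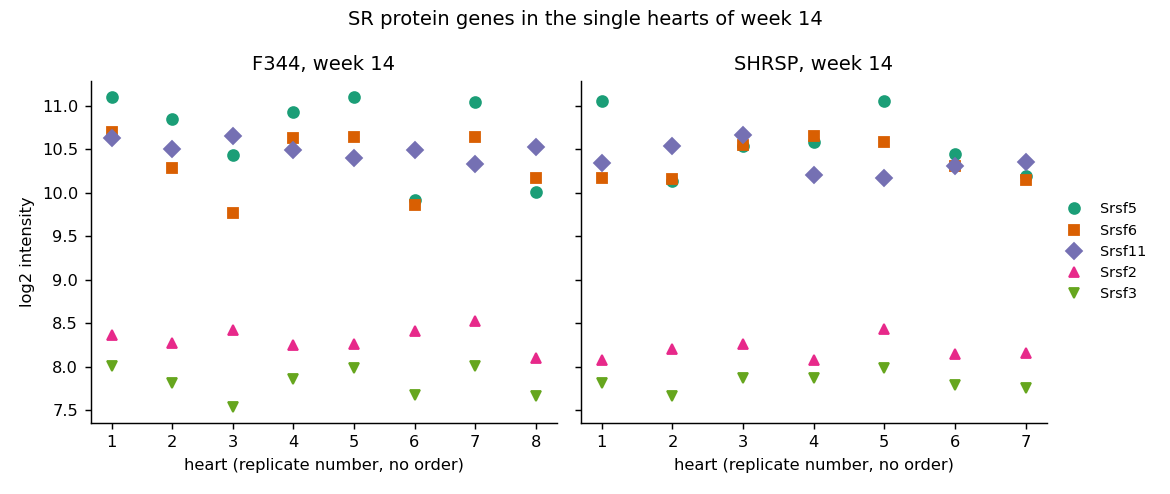
Log2 intensity of 5 SR protein genes in each single heart of week 14, F344 left and SHRSP right, with 1 symbol per gene (some symbols hide others at the same level). Srsf5 (circles) and Srsf6 (squares) are lowest in the F344 hearts numbered 3, 6 and 8, between 9.77 and 10.43, while Srsf11, Srsf2 and Srsf3 spread less.

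Genes of the wider pathway, from lists that hold no member, were also more often higher than lower at E20. Of 51 other spliceosome proteins 26 were higher and 4 lower in SHRSP and 27 higher and 6 lower in F344, with a median of 0.21 in each. Snw1 (SKIP), a component of the activated spliceosome, was higher by 2.05 (SE 0.14) in SHRSP and 1.81 (SE 0.12) in F344, which is 4.15-fold and 3.51-fold. The U6-binding Lsm8 differed by 1.07 and 0.87, its ring partner Lsm7 by 0.96 and 0.39, and Prpf19, the ubiquitin ligase of the spliceosome, by 1.02 and 1.02. Of 15 snRNP assembly genes 8 and 11 were higher and 0 and 0 lower, among them Gemin6 (1.38 and 1.09) and Smn1 (0.88 and 0.65), both of the SMN complex that loads Sm proteins onto snRNA, and the nuclear transport receptors Xpo1 (1.06 and 1.07) and Kpnb1 (0.67 and 0.75).

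Of 14 genes of the exon junction complex and mRNA export 8 were higher in SHRSP, 9 in F344 and 0 lower. They included Rnps1 (1.23 and 1.11), a splicing activator deposited at exon junctions, Magoh (0.78 and 0.65), a core protein of that complex, the export cofactor Nxt1 (1.13 and 0.95) and the helicase Ddx39a (0.97 and 0.70). Of 22 SR protein kinases and SR-related genes 9 were higher in each strain, 3 lower in SHRSP and 4 lower in F344. Tra2b, an SR-like splicing activator, was higher by 1.23 and 1.01, and Clk1, a kinase that phosphorylates SR proteins, was lower by −0.94 and −0.85. Of this list Ppp1r8, a nuclear inhibitor of protein phosphatase 1, differed by 0.74 and 0.62, and Snrnp35 of the minor spliceosome, which stands also in the spliceosome list, by 0.87 and 0.27, where the F344 call (adjusted p = 0.037 by limma) was lost without any of 7 single F344 arrays (adjusted p from 0.066 to 0.10).

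A list of 26 splicing regulators, headed tissue-restricted, also held widely expressed genes such as Ptbp1, Khdrbs1 and Celf1. In it 11 were higher and 2 lower in SHRSP, and 14 higher and 2 lower in F344. The largest difference in these 5 lists belonged to Rbfox1, a regulator of muscle and neuron exons, whose group means were 7.30 and 7.33 at E20 against 11.07 and 11.02 at week 14 in SHRSP and F344. This is a difference of −3.76 (SE 0.25, limma adjusted p = 2.6e-12) and −3.69 (SE 0.21, limma adjusted p = 5.8e-14), and the fetal means were close to the bottom of the scale. In the other direction, Khdrbs1 (Sam68) was higher by 1.22 and 1.13, Ptbp1, the polypyrimidine tract-binding repressor, by 0.84 and 0.62, and Celf1, known from mouse heart for splicing switches after birth, by 0.40 and 0.65.

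**Figure D4:**
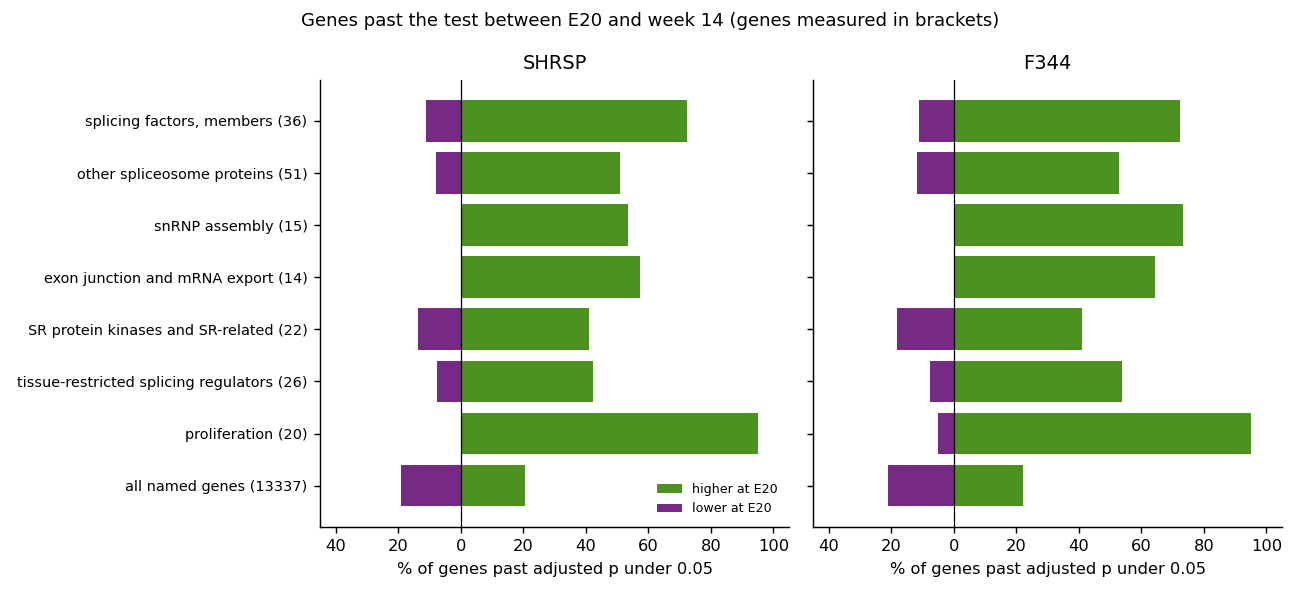
Percentage of genes past limma's adjusted p threshold between E20 and week 14, higher at E20 to the right and lower to the left, in SHRSP and F344, for the 36 members, 5 other lists of RNA processing genes, proliferation genes and all 13337 named genes. The members reach 72.2% higher and 11.1% lower in each strain, against 20.4% and 22.0% higher over all named genes.

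Markers of other cell types and of dividing cells moved with the stage as well. Of 20 proliferation genes 19 were higher at E20 in each strain and 1, Ccnb1, was lower in F344 (−0.09, with group means of 6.93 to 7.05), with medians of 2.14 in SHRSP and 2.10 in F344 and per-array means of 9.76 to 9.91 at E20 against 7.49 to 7.76 at week 14. Cell cycle genes such as Cdk1 (3.95 and 4.31), Rrm2 (4.19 and 4.20), Ccnb2 (3.96 and 4.19) and Ccna2 (3.01 and 3.18) showed far larger differences than the splicing factors, whose per-array means were 9.44 to 9.61 at E20 against 8.98 to 9.14 at week 14. Of 9 macrophage markers 9 were lower at E20 in both strains, with per-array means of 7.73 to 8.10 against 8.84 to 9.87. Of 9 fibroblast markers 6 were higher and 3 lower in each strain (per-array means 10.89 to 11.19 against 9.84 to 10.36), and of 7 erythroid markers 4 in SHRSP and 5 in F344 were higher (10.40 to 10.88 against 9.34 to 10.11). The 11 cardiomyocyte markers include Nppa, which also stands in the list of atrial markers. Of these 11, 7 were lower at E20 in SHRSP, and 5 lower and 1 higher in F344. In the list of 10 T and NK lymphocyte markers 4 were lower and 1 higher at E20 in SHRSP, and 9 were lower in F344, with per-array means of 7.12 to 7.15 at E20 against 7.24 to 7.41 at week 14 in SHRSP and 7.70 to 8.24 in F344. Of 7 endothelial markers 3 were lower in SHRSP, and 4 lower and 1 higher in F344 (8.61 to 8.78 against 8.97 to 9.24). Of 5 smooth muscle and pericyte markers 1 was higher and 1 lower in SHRSP, and 2 were higher and 2 lower in F344.

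The list of atrial markers held 3 genes, and its per-array means were 11.30 to 11.64 at E20 against 9.44 to 10.48 at week 14. Myl7, the atrial myosin light chain, had group means of 14.06 at E20 against 7.82 at week 14 in SHRSP and 14.04 against 11.58 in F344. Nppa, the atrial natriuretic peptide gene, which ventricles also express in the fetus and under load, was lower at E20 in SHRSP (13.07 against 14.20) and higher in F344 (12.87 against 11.42), and Bmp10 passed in neither strain. The part of these markers in the differences of the splicing factors was not tested.

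Between the strains at week 14, 4 of 36 members were lower in SHRSP and 0 higher. The share of 11.1% stands beside 8.95% of all probes and 11.0% of all named genes that passed in either direction, and beside 4.46% and 5.63% that were lower (4.49% and 5.38% were higher), so the count in total was near the background. At an unadjusted p under 0.05 there were 0 higher and 6 lower, but the share of all probes at this cut was not computed. The median difference of the members was −0.014, against −0.0012 over all probes.

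Snrpa had the largest strain difference, with SHRSP at 8.80 to 9.40 (median 8.97) and F344 at 9.17 to 10.60 (median 9.52). The ranges overlapped, and the difference was −0.60 (SE 0.14, 1.52-fold, limma adjusted p = 0.0055). Without the adult F344 heart at 10.60, replicate 3, it was −0.47 with an adjusted p of 0.0035 by limma, and the lowest and highest values on leaving out any array were −0.68 and −0.47. Hnrnpa3, an hnRNP of the A/B family, was at 10.51 to 10.90 (median 10.75) in SHRSP and 10.66 to 11.35 (median 11.14) in F344, a difference of −0.36 (SE 0.079, 1.29-fold, limma adjusted p = 0.0023). Both calls were kept on leaving out any of the 26 arrays, while Snrpa had an adjusted p of 0.091 with the methods' t-test. This test is named there for strain comparisons in general, whereas the arrays themselves were tested with limma by the authors.

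The remaining calls belonged to the SF3b subunits. Sf3b1 was at 8.13 to 8.45 (median 8.34) in SHRSP and 8.15 to 8.75 (median 8.56) in F344, a difference of −0.23 (SE 0.066, limma adjusted p = 0.022). Sf3b2 was at 8.51 to 8.84 (median 8.79) in SHRSP and at 8.84 to 9.02 (median 8.94) in F344, so the groups met at 8.84 without overlapping, as they did for 3.38% of all probes, and the difference was −0.21 (SE 0.064, limma adjusted p = 0.039). The call of Sf3b1 was lost without replicate 5 or 6 of SHRSP or replicate 4 of F344 at week 14 (adjusted p = 0.059, 0.062 and 0.051 by limma), and with the methods' t-test its adjusted p was 0.15. That of Sf3b2 was lost without replicate 2, 3 or 6 of SHRSP or replicate 3, 5, 6 or 8 of F344 at week 14 (adjusted p from 0.063 to 0.11 by limma), so that 2 calls were left without replicate 6 of SHRSP. Sf3a3 was close to the threshold with −0.16 (SE 0.051, limma adjusted p = 0.055). For the other members the strain difference at week 14 did not pass, and the median half-width of the 95% intervals over all members was 0.15.

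**Figure D5:**
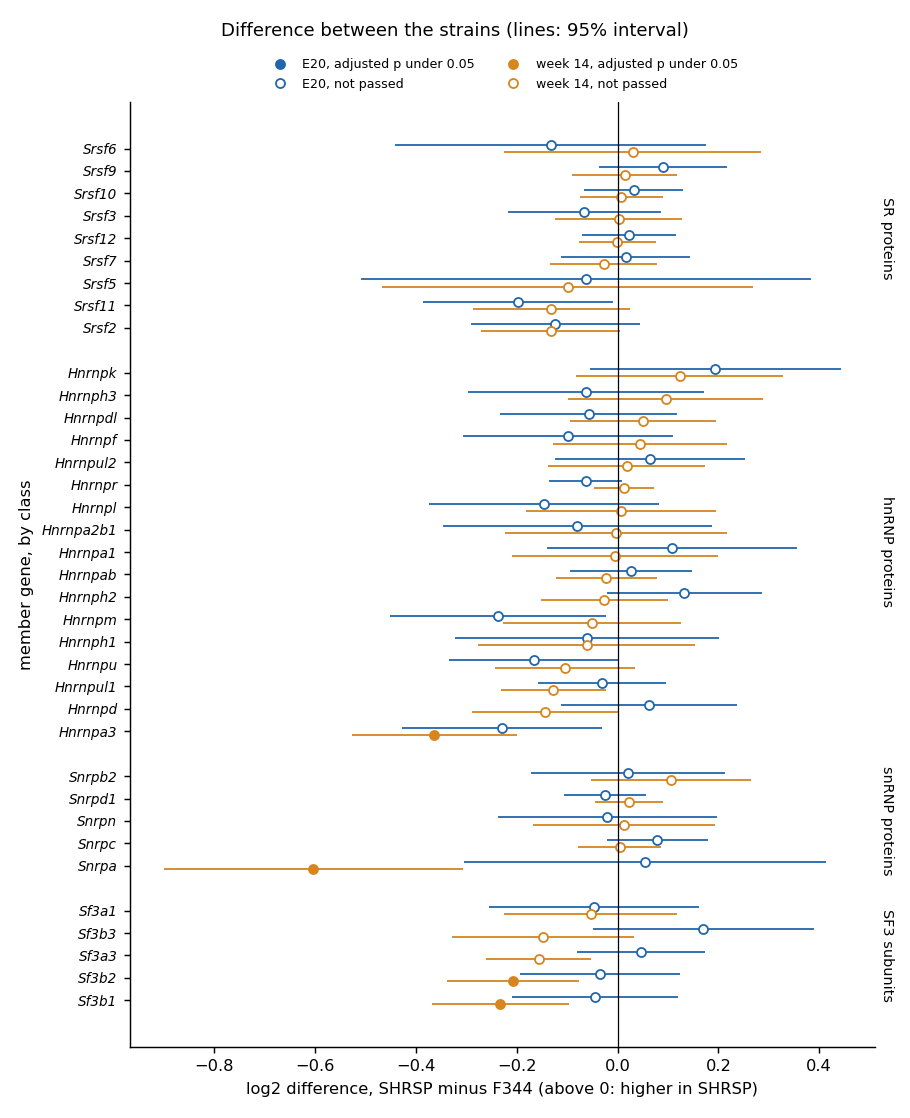
Log2 difference between SHRSP and F344 for each of the 36 members, by class, at E20 (blue) and week 14 (orange). Points are limma estimates, lines are 95% intervals and open points did not pass the adjusted p threshold. The 4 filled points are Snrpa, Hnrnpa3, Sf3b1 and Sf3b2 at week 14, all lower in SHRSP, from −0.60 to −0.21.

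Over all named genes 5.63% were lower in SHRSP at week 14 and 5.38% higher, and no list was tested against this background. Other RNA processing genes were also lower, not higher, in SHRSP where they passed. These were 6 of 51 other spliceosome proteins and 2 of 22 SR kinases and related genes, with Snrnp35 standing in both lists. Of the exon junction and export genes 2 of 14 were lower, and of the list headed tissue-restricted 0 of 26. Of the snRNP assembly genes 3 of 15 were lower. The snRNP assembly genes were Prmt5 (−0.75, SE 0.082, limma adjusted p = 1.1e-07), the arginine methyltransferase of Sm proteins, its partner Clns1a (pICln; −0.57, SE 0.072, limma adjusted p = 1.5e-06), which presents Sm proteins to it, and Gemin2 (−0.22, SE 0.064, limma adjusted p = 0.028). Prmt5 and Clns1a were lower in SHRSP at E20 too, by −0.50 and −0.38 (adjusted p = 0.0023 and 0.010 by limma), whereas Gemin6 was higher there by 0.43 (adjusted p = 1.6e-04 by limma). These genes, other than Gemin6, were named after their values had been seen. Beside these differences, 8 of 10 markers of T and NK lymphocytes and 3 of 9 macrophage markers were lower in SHRSP at week 14, with per-array means of the lymphocyte list of 7.24 to 7.41 in SHRSP and 7.70 to 8.24 in F344. Of 11 cardiomyocyte markers, which include Nppa, 3 were higher in SHRSP, and 1 of 20 proliferation genes, Cdk1. The call of Cdk1 was lost with only the groups compared and with the replicate block (adjusted p = 0.106 and 0.062 by limma). It was also lost with the methods' t-test (adjusted p = 0.18) and without any of several single arrays. Among the atrial markers Myl7 was lower in SHRSP at week 14 by −3.76 and Nppa was higher by 2.78. Of 9 fibroblast markers 1 was higher and 1 lower, 1 of 7 endothelial and 1 of 5 smooth muscle and pericyte markers were higher, and 1 of 7 erythroid markers was lower. The part of these cells in the strain differences of Snrpa, Hnrnpa3, Sf3b1 and Sf3b2 was not tested.

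At E20 limma called 0 members higher and 0 lower between the strains, against 3.21% of all probes in either direction, 1.55% higher and 1.66% lower. At an unadjusted p under 0.05 there were 3, Hnrnpm, Hnrnpa3 and Srsf11, all lower in SHRSP. The methods' t-test likewise gave 0 calls and 3 at an unadjusted p under 0.05. No share of all probes at this unadjusted cut was computed. The differences of Hnrnpm, Hnrnpa3 and Srsf11 were −0.24 (95% interval −0.45 to −0.02), −0.23 (−0.43 to −0.03) and −0.20 (−0.38 to −0.01). Snrpa differed by 0.05 (−0.30 to 0.41) at E20, with 11.19 to 11.35 in SHRSP and 10.99 to 11.45 in F344. Only 4 SHRSP hearts were measured at E20, and the median half-width of the unadjusted 95% intervals was 0.18. Since calls rest on adjusted p-values, differences larger than that could also have been missed.

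The difference of the stage effect between the strains was tested as an interaction, (SHRSP at E20 minus week 14) minus (F344 at E20 minus week 14). Limma called 0 members higher and 0 lower, against 2.96% of all probes. Unadjusted p-values under 0.05 were found for 3: Snrpa, Sf3b3 and Sf3a3, all with a larger excess at E20 in SHRSP. The share of all probes at this unadjusted cut was not computed. The interaction was 0.66 for Snrpa (95% interval 0.19 to 1.12, limma adjusted p = 0.15), 0.32 for Sf3b3 (0.03 to 0.60) and 0.20 for Sf3a3 (0.04 to 0.37). Without replicate 3 of F344 at week 14 it was 0.53 for Snrpa (adjusted p = 0.093 by limma). The 95% intervals of all members reached from −0.56 to 1.12.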

How the data were processed

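Left ventricles of week 14 and hearts of E20 from SHRSP and F344 rats were each hybridised to an Illumina RatRef-12 BeadChip. Signals were exported by the authors from GenomeStudio and checked in lumi. Arrays that correlated poorly with their group were removed, and the deposited log2 values were quantile-normalised. A background correction is not given in the sources used here. The log2 intensity of 22523 probes on 26 arrays was used as deposited, and groups came from the sample titles. The 52 columns of the raw intensity table carry names that match no sample label and were not used, so no filter on detection was applied and the precision rests on the number of arrays. Gene names came from the platform annotation: 13793 probes had 1 name and 8730 were unnamed, and 13752 names were checked through their gene ID.

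One linear model over all 26 arrays, with a mean for each group, was fitted to every probe (lmFit and eBayes of limma 3.58.1, R 4.3.3, two-sided), and p-values were adjusted by Benjamini-Hochberg over all probes. A probe passed at an adjusted p under 0.05, and a second count added a log2 difference beyond 1.5. The fit was tested on simulated data with 50 probes at each size of change. At week 14 between the strains 37 of 50 changes of 0.25, 44 of 50 of 0.5 and 50 of 50 of 1 were recovered. There were 12 calls among 22323 unchanged probes. For the interaction 28 of 50 changes of 0.25 were recovered. The changed probes were drawn from all probes, with independent normal noise, so these counts do not give the recovery for the brighter members. Members were named where they were among the 5 highest or 5 lowest past the test in a comparison or had the highest or lowest probe means of their class, and list genes where they were among the 4 largest stage differences of their list. Members, gene lists and tests were chosen with earlier results of these data known. Markers listed for a cell type were counted in the same fit. The authors likewise used lmFit and eBayes for the arrays. Alternatives were the methods' t-test (Student's, named there for strain comparisons in general), cyclic loess, limma-trend, the replicate number as a block, array weights, centring on probes above 8, leaving out probes with no group mean above 7.5, the mean of all probes of a gene, only the groups compared, and leaving out each array in turn. Averaging the fetal SHRSP arrays in pairs (1 with 2, 3 with 4) was added after seeing the data. Promoter windows came from RefSeq tables for GRCr8.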

Additional observations from a re-analysis of the deposited data

Results flagged for a closer look

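In 144 sets of 1 member in 1 group, 10 arrays lay apart from the others of their group, in that the gap to the nearest other array, as a share of the group's range, was above Dixon's 95% critical value. By the construction of that value, chance alone marks about 1 set in 20. Hnrnph3 had such a heart in 3 groups: F344 at week 14, replicate 3, with 9.21 against 9.79 to 10.17 in the others, F344 at E20, replicate 7, with 9.71 against 9.43 to 9.54, and SHRSP at E20, replicate 3, with 9.36 against 9.48 to 9.50. Snrpc was low in replicate 2 of F344 at E20 (7.11 against 7.21 to 7.28) and in replicate 4 of SHRSP at E20 (7.10 against 7.35 to 7.39), all near the lower end of the scale. Hnrnpl was high in replicate 2 of F344 at E20, with 12.45 against 11.69 to 11.93. Sf3a3 was high in replicate 5 of F344 at E20 (10.22 against 9.88 to 10.01), and Sf3b3 was low in replicate 1 of F344 at week 14 (9.24 against 9.53 to 9.68). Srsf9 was high in replicate 6 of SHRSP at week 14, with 7.99 against 7.83 to 7.87, and Hnrnpul1 in replicate 2 of SHRSP at E20, with 8.0 against 7.78 to 7.80.

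Of the named genes outside the members, Snrnp35, a protein of the minor spliceosome, differed between the strains in its stage effect. It was higher at E20 by 0.87 (SE 0.12) in SHRSP and by 0.27 (SE 0.10) in F344, and the interaction was 0.60 (SE 0.16, limma adjusted p = 0.030). The call was lost without any 1 of the 4 SHRSP hearts of E20, without replicate 2 or 3 of F344 at E20 and without replicate 2 of SHRSP at week 14, with adjusted p-values from 0.050 to 0.076 by limma, and with the pairs of SHRSP hearts averaged it was 0.17. The difference is carried by week 14, where the group means were 9.01 in SHRSP and 9.64 in F344, against 9.88 and 9.91 at E20.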

How the results depend on the processing

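The counts of members higher and lower at E20 stayed close to 26 and 4 in both strains under the alternatives run: leaving out 1 array gave 25 to 27 higher and 4 to 5 lower in SHRSP and 26 higher and 4 lower in F344, and the medians ran from 0.42 to 0.48 and from 0.41 to 0.46. None of the results computed changed direction where it was called. The 4 members lower in SHRSP at week 14 were 2 with the methods' t-test, where Snrpa and Sf3b1 did not pass (adjusted p = 0.091 and 0.15), and 2 to 5 on leaving out 1 array. In F344, 1 snRNP assembly gene was lower at E20, where the main fit had 0, with the replicate block, with array weights, with cyclic loess and on leaving out some single arrays, which gave 0 to 1. Leaving out dim probes took the 5 members with every group mean below 7.5 out of the test. Among them were Snrpc, one of the 26 higher at E20, and Snrpd1, one of the 4 lower. It also took out Rbfox3. Of the 2 genes lower at E20 in the list headed tissue-restricted, 1 was then left in SHRSP and 1 in F344. With the pairs of SHRSP hearts averaged, an alternative chosen after seeing the data, 1 was left in SHRSP. Replicate numbers do not pair the samples: same-numbered arrays had deviations from their group means that correlated from −0.229 to 0.408. With the number as a block, 26 members were higher and 4 lower at E20 in both strains, and 3 were lower in SHRSP at week 14, where Sf3b2 had an adjusted p of 0.063 by limma. The call of Sf3b2 was also lost with limma-trend, array weights and cyclic loess (adjusted p = 0.072, 0.052 and 0.095 by limma), and that of Sf3b1 with only the groups compared (0.086), while Sf3a3 passed when dim probes were left out (0.038). The interaction could be fitted neither with only 2 groups nor with the t-test. Members below 7.5 have compressed differences, and 1 probe per gene does not resolve isoforms or close paralogues.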
